A study of Mus musculus with 4 samples.

Results

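The neurons described here are Nr5a1 Hmcn2 neurons of the ventromedial hypothalamus (VMH), called VMH neurons below, in single-nucleus RNA profiles of whole mouse hypothalamus. They were chosen by their unique molecular identifiers (UMIs, 1 per captured RNA molecule). A neuron had at least 1000 UMIs and at least 3 of Snhg11, a long noncoding RNA of neurons, and a VMH neuron had in addition at least 3 UMIs summed over Nr5a1, Hmcn2, Gpr149 and Fezf1, with at least 2 of these 4 genes detected. The rule found 51 of 4243 neurons, and those neurons were among 6158 nuclei. The study profiled frozen hypothalamus of mice about 18 months old, some labelled as recipients of human hypothalamic stem cells, made from pluripotent cells, and some labelled control, with 2 matrices under each label. The values below come from the 2 control-labelled matrices, called library 1 and library 2. The sex and strain of the mice are not given in the sources used here, nor is what the control mice received, and the label of library 1 joins 2 animal codes.

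The same nuclei were deposited under both labels. All 39 VMH neurons of library 1 and all 12 of library 2 had a barcode that also stood in the matrix labelled transplanted of the same replicate, whereas libraries 1 and 2 shared 4 barcodes. Only 2 distinct libraries therefore stand behind every value, and transplanted and control hypothalamus cannot be told apart in them. Library 1 held 4008 nuclei and 8779880 UMIs, and library 2 held 2150 nuclei and 4924563 UMIs. The 2 libraries carry different animal codes. Library 1 carries 2 codes and its nuclei were not assigned to either here, so values of single mice are not given for it. The tests below set level differences between the libraries aside as a block. Their p-values rest on a spread of the difference between sets of nuclei over 2 libraries, estimated mainly over all genes. A gene's own variation between the 2 libraries therefore had little weight in them. The p-values do not measure a spread between single mice.

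The VMH is a glutamatergic nucleus of the medial hypothalamus, known for its part in energy balance, the response to low blood glucose, and defensive and sexual behaviour. Nr5a1 encodes steroidogenic factor 1, a nuclear receptor that in the brain marks this nucleus and is needed for its formation. Fezf1 is a zinc finger transcription factor of the developing forebrain that is also required for the VMH, Hmcn2 encodes hemicentin 2, a large extracellular matrix protein, and Gpr149 encodes an orphan G protein-coupled receptor.

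The promoters of genes used by the rule are shown here because they introduce the genes that define these neurons, and that of Syt6 because it held the extended binding half-site of Nr5a1. Each window has 300 bases, 250 before the start site and 50 from it on, from RefSeq (GRCm38.p6), written 5′ to 3′ on the gene's strand, with a match to CAAGGTCA in capitals. The Hmcn2 window is chr2:31314082-31314381 on the plus strand, the Fezf1 window chr6:23248215-23248514 on the minus strand and the Syt6 window chr3:103574995-103575294 on the plus strand. Nr5a1 and Gpr149 were not matched to a promoter.
Hmcn2: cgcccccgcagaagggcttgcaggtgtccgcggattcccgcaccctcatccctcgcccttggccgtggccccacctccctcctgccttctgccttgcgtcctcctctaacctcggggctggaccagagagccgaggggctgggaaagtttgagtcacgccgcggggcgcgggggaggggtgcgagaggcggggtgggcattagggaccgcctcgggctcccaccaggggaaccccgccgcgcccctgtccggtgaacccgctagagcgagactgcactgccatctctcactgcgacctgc
Fezf1: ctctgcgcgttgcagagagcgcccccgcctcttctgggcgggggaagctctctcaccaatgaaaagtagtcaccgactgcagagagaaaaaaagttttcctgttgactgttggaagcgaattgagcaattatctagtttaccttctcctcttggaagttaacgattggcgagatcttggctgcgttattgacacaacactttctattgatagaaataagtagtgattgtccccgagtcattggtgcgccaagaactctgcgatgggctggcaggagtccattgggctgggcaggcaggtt
Syt6: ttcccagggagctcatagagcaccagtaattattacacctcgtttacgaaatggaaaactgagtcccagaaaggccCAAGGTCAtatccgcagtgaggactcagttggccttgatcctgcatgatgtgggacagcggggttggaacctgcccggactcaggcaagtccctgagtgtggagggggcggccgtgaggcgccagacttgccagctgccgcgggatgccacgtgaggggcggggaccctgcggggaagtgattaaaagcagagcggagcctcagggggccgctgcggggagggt
The windows of Hmcn2 and Fezf1 held neither CAAGGTCA nor its core AGGTCA on either strand, and the Syt6 match began at base -174 from the start site on the plus strand.

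The VMH neurons were rare in both libraries. They made up 39 of 2820 neurons (1.38%, exact 95% binomial interval 0.985% to 1.89%) in library 1 and 12 of 1423 neurons (0.843%, 0.436% to 1.47%) in library 2, and the intervals overlap. Such intervals cover counting error only. A nucleus with more UMIs meets a rule on UMIs more easily: the median was 3978 UMIs in VMH neurons against 2354 in other neurons of library 1, and 3708.5 against 2675 in library 2. In the transplanted-labelled deposit the rule found 41 and 11 nuclei, of which 32 and 7 were also chosen in the control-labelled deposit of the same nuclei. Membership of single nuclei thus moved between 2 deposits of 1 library, while the shares were 1.45% and 0.771%.

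Gpr149 carried most of the choice. It was detected in 38 of 39 VMH neurons of library 1 and in 12 of 12 of library 2, with 126 and 31 UMIs. Hmcn2 was detected in 25 and 9 of them with 34 and 17 UMIs, Fezf1 in 12 and 1 with 17 UMIs and 1 UMI, and Nr5a1 in 10 and 4 with 11 and 5 UMIs. Of the 51 VMH neurons, 37 therefore had no Nr5a1 UMI, and 33 had Gpr149 together with Hmcn2. In other neurons, Gpr149 was detected in 8.38% and 8.29% of nuclei, Hmcn2 in 1.69% and 1.98%, Nr5a1 in 0.611% and 0.567%, and Fezf1 in 0.575% and 0.425%. These values are a description, since they chose the nuclei.

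**Figure D1:**
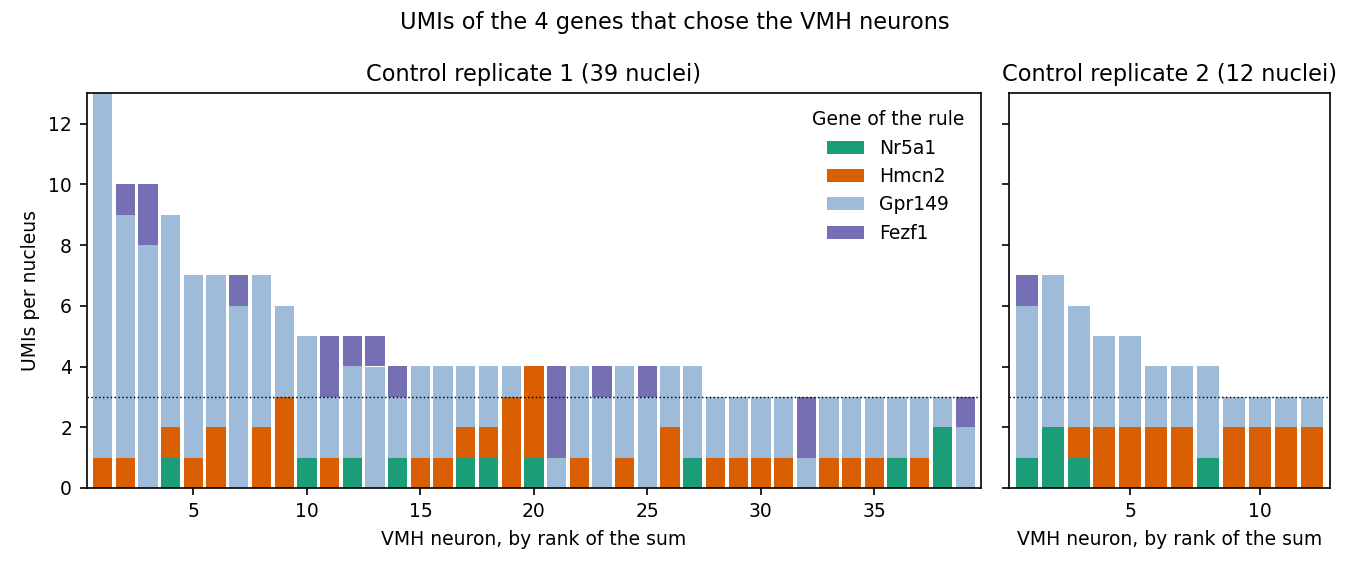
UMIs of Nr5a1, Hmcn2, Gpr149 and Fezf1 (stacked colours, vertical axis) in each of the 39 VMH neurons of library 1 and the 12 of library 2 (horizontal axis, ranked by the sum). Most nuclei lie near the dotted threshold of 3 UMIs and the light blue of Gpr149 fills most bars, up to a sum of 13 UMIs.

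Most of the 51 nuclei lay close to the threshold. The sum was 3 UMIs in 16 of them, 4 in 17 and 5 or more in the rest, up to 13, and 42 had exactly 2 of the 4 genes while 9 had 3. Just outside the rule, 18 neurons of library 1 and 10 of library 2 had 2 genes with 1 UMI each, and 39 and 14 had 3 or more UMIs of 1 gene alone, which was Gpr149 in 36 and 14. No UMI of the 4 genes was found in 155 and 162 nuclei with oligodendrocyte markers and no Snhg11 UMI (exact upper limits 2.35% and 2.25%), whose median was 677 and 713.5 UMIs.

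Grouping the neurons without these 4 genes and Snhg11 placed most VMH neurons together. Of the 28 clusters, cluster 10 held 43 of the 51 (84.3%, 71.4% to 93.0%), namely 31 of 39 in library 1 and 12 of 12 in library 2, whereas it held 341 of all neurons (8.04%). Cluster 9 held 6 more, all of library 1, and clusters 1 and 18 held 1 each. The VMH neurons were 12.6% of cluster 10, so its other 298 nuclei stand among the other neurons in the comparisons below.

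Those 298 nuclei also held nearly all remaining Nr5a1. Outside the VMH neurons, 19 of 21 Nr5a1 UMIs of library 1 and 7 of 8 of library 2 lay in cluster 10, although Nr5a1 had no part in the clustering. The level of Nr5a1 in those nuclei was 31.1 CPM (UMIs of the gene per 1000000 UMIs of the set of nuclei) in library 1 and 28.8 CPM in library 2, against 0.285 and 0.250 CPM in the other neurons outside the cluster. The rule thus took part of a larger group of neurons with Nr5a1. The 8 VMH neurons outside cluster 10 had Fezf1 in 62.5% of nuclei and Nr5a1 in 12.5%, against 22.6% and 29.0% of the 31 inside it in library 1.

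**Figure D2:**
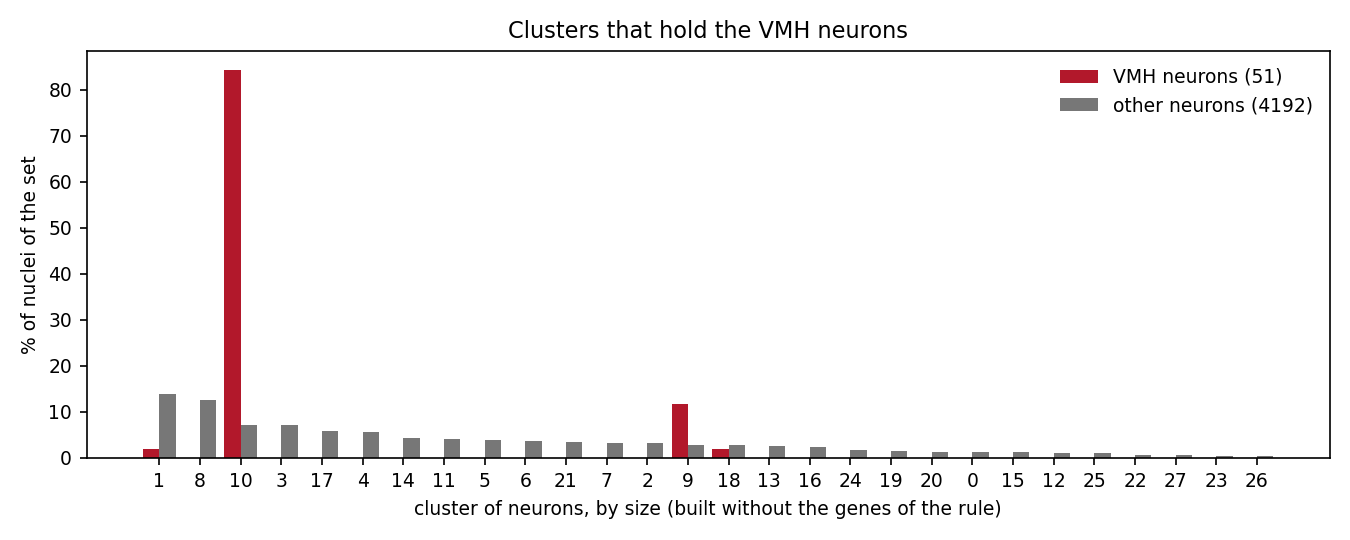
Share of the 51 VMH neurons (red) and of the 4192 other neurons (grey) in each of 28 clusters of neurons, in % of the nuclei of each set, with clusters ordered by size. Cluster 10 holds 84.3% of the VMH neurons, and cluster 9 is the only other with more than 1 of them.

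The VMH neurons held RNA of the glutamate transporter and little of the GABA genes, while several known VMH genes had few UMIs, so their name rests on the 4 genes of the rule. Slc17a6, which encodes the vesicular glutamate transporter of the hypothalamus, had 52 UMIs (292 CPM) in library 1 and 10 UMIs (203 CPM) in library 2, against 186 and 132 CPM in other neurons, a difference that missed the threshold (log2 difference 0.55 ± 0.26 SE, edgeR adjusted p = 0.519). It was detected in 29 of the 51 nuclei. Of 8 tested genes of glutamate and GABA identity none was higher and 3 were lower, Gad2 and Slc32a1 among them. Gad1, Gad2 or Slc32a1, the genes of GABA synthesis and packaging, were detected in 3 of the 51, all of library 1 and all with Slc17a6 as well. For VMH neurons of library 1 that is 7.69%, against 3.13% of other neurons with both kinds of gene. No doublet caller was run, and what part doublets have in these 3 nuclei was not tested.

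Among classical VMH genes, Adcyap1, which encodes the neuropeptide PACAP, had 6 UMIs in library 1 and 0 in library 2. Bdnf, a neurotrophin of this nucleus, had 2 and 0, Lepr, the leptin receptor, 4 and 1, Nos1, neuronal nitric oxide synthase, 2 and 0, and Cd40 and Vgll2 had 0 in both. The transcription factors Nkx2-1 and Sox14 had 7 and 1 and 4 and 1 UMIs. Sox14 was at 22.5 and 20.3 CPM in VMH neurons against 2.49 and 1.89 CPM in other neurons, but 5 UMIs did not pass the test (log2 difference 3.12 ± 1.41 SE, adjusted p = 0.449). Adcyap1, Bdnf, Lepr, Nos1 and Nkx2-1 also missed the threshold, with adjusted p between 0.751 and 0.998. At this depth, 3 UMIs stand for 16.9 CPM in VMH neurons of library 1 and 61.0 CPM in those of library 2, so a lack of UMIs does not show that a gene was absent.

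Genes of the ventrolateral VMH, the subdivision with sex steroid receptors, had few UMIs and a summed level near that of other neurons. It was 253 and 224 CPM in VMH neurons against 245 and 255 CPM in other neurons. Of 12 such genes 7 could be tested and none passed (edgeR, adjusted p). That is close to the 0.793% and 1.33% of all genes tested that were called higher and lower. Their median log2 difference was 0.20 where genes at 0 are set to the level of 3 UMIs. Esr1, estrogen receptor alpha, was found in 1 of 39 and 3 of 12 nuclei. Pgr, the progesterone receptor, had 18 UMIs (101 CPM) in library 1 and 0 in library 2, against 61.8 and 65.6 CPM in other neurons. Tac1, which encodes substance P, had 3 UMIs and 1, and Mc4r, the melanocortin 4 receptor, Cckar and Oxtr had 0 in both libraries. Of 17 genes that Nr5a1 regulates in the adrenal gland, gonads and pituitary, 14 had no UMI in VMH neurons and none of 3 tested passed. The list was low in both sets, with a summed level of 56.2 and 81.3 CPM in VMH neurons against 72.4 and 110.4 CPM in other neurons.

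VMH neurons were then compared with all other neurons. Counts were summed over the nuclei of each set in each library and tested across 12236 genes with edgeR's quasi-likelihood test with library as a block, Benjamini-Hochberg adjustment and a threshold of 0.05, leaving out the genes that chose the nuclei. VMH neurons had 178040 and 49213 UMIs in sum, against 7637513 and 4239416 in other neurons. With 4 sums there is 1 residual degree of freedom per gene, so the test leans on the spread estimated over all genes. In VMH neurons 97 genes (0.793%) were called higher and 163 (1.33%) lower, and 1044 had an unadjusted p under 0.05. DESeq2 on the same sums called 24 genes, 12 in each direction, all of them among the 260 called by edgeR. Of the 77 called genes named in this comparison 22 passed DESeq2, and 19 had no adjusted p from it. Scaling by library totals alone called 145 higher and 153 lower, 48.7% of calls higher in place of 37.3%. That scaling moved the median log2 difference of all genes to -0.12, against -0.22 with the scaling used here, and no called gene changed direction under it.

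Among the higher genes, the smallest p was that of Slit3, which encodes a secreted ligand of Robo receptors that guides axons. Slit3 had 111 UMIs (623 CPM) in VMH neurons of library 1 and 50 (1016 CPM) in those of library 2, against 115 and 149 CPM in other neurons. The log2 difference was 2.45 ± 0.22 SE, a 5.46-fold higher level (edgeR adjusted p = 2.39e-25, DESeq2 adjusted p = 1.88e-06). It was detected in 34 of 39 and 12 of 12 VMH neurons against 17.8% and 22.5% of other neurons. With every nucleus thinned to 1000 UMIs, the shares were 56.4% and 58.3% against 9.24% and 10.7%. Slit3 was high with and without a detected Nr5a1 UMI, at 514 and 1193 CPM in the 10 and 4 VMH neurons with one and at 674 and 885 CPM in the 29 and 8 without.

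Rreb1, a zinc finger transcription factor that binds Ras-responsive elements, was at 680 and 467 CPM in VMH neurons against 121 and 91.8 CPM in other neurons (log2 difference 2.33 ± 0.23 SE, edgeR adjusted p = 2.52e-20). Megf11, a transmembrane protein with epidermal growth factor repeats that spaces neurons in the mouse retina, was at 242 and 386 CPM against 43.5 and 44.6 CPM. Adamts9, a secreted metalloprotease of the extracellular matrix, had 21 and 11 UMIs, at 118 and 224 CPM against 15.6 and 10.6 CPM. Its fold of 9.32 was the highest among the 15 leading genes, and it came from 17 of the 51 nuclei, with at most 5 UMIs in any of them. All 3 genes were also called by DESeq2.

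Hs3st4, a heparan sulfate sulfotransferase, was at 1376 and 1341 CPM in VMH neurons against 429 and 410.2 CPM in other neurons, and was detected in 49 of the 51 nuclei. Nek10, a kinase of the NIMA family, was at 236 and 305 CPM against 56.2 and 55.7 CPM. Prkd1, a protein kinase D, was at 337 and 650.2 CPM against 164 and 127 CPM, and Rps6ka2, a ribosomal S6 kinase, at 281 and 284 CPM against 81.2 and 92.2 CPM. Prkd1 and Rps6ka2 missed the threshold of DESeq2, with adjusted p of 0.0692 and 0.0747.

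The other leading genes rose by 3.09-fold to 6.39-fold. Lama1, a laminin chain of basement membranes, was at 146 and 81.3 CPM in VMH neurons against 20.2 and 16.3 CPM in other neurons, with 26 and 4 UMIs in 21 of the 51 nuclei. Itpr1, the inositol trisphosphate receptor that releases calcium from internal stores, was at 376 and 406 CPM against 111 and 124 CPM. Tgfbr3, the TGF-beta coreceptor betaglycan, was at 219 and 203 CPM against 59.7 and 53.3 CPM. Lcorl and Zbtb7c, transcription factors, and Gm30382 and 9530026P05Rik, named only by identifier-like symbols, were between 292 and 732 CPM in VMH neurons against 74.1 to 201 CPM in other neurons. Tgfbr3 missed the threshold of DESeq2 (adjusted p = 0.0660), which gave Lama1 no adjusted p.

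The gene with the smallest p in the other direction was Nrxn3, a presynaptic neurexin. It was at 685 and 325 CPM in VMH neurons against 4148 and 4186 CPM in other neurons, a log2 difference of -3.08 ± 0.26 SE (edgeR adjusted p = 1.81e-27). The difference was smaller against similar neurons: Nrxn3 was at 928 and 1051 CPM in other glutamatergic neurons (log2 difference -0.84, edgeR adjusted p = 0.0411) and at 631 and 1070 CPM in the other nuclei of cluster 10. Sema6d, a transmembrane semaphorin, had 3 UMIs in VMH neurons of library 1 and 0 in those of library 2, against 289 and 332 CPM in other neurons, a ratio of 23.1 (counting interval 7.88 to 112). Gad2 had 3 and 0 UMIs as well, and other neurons were 16.6 times higher (5.68 to 80.7). Il1rapl2, a synaptic adhesion protein, was at 95.5 and 122 CPM in VMH neurons against 658 and 507 CPM in other neurons, and 1 nucleus held 9 of its 23 UMIs.

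The remaining leading genes were lower in VMH neurons of both libraries. Auts2, a nuclear regulator of neuronal transcription, was at 191 and 427 CPM against 952 and 976 CPM in other neurons, and Elavl2, a neuronal RNA-binding protein, at 107 and 102 CPM against 505 and 414 CPM. Fstl5, a follistatin-like secreted protein, had 27 UMIs in library 1 and 0 in library 2, against 455 and 436 CPM. It was far from the threshold of DESeq2 (adjusted p = 0.9997). Rbms3, an RNA-binding protein, Zfp804b and Galntl6 were called as well, and 1 VMH neuron held 62 of the 218 Galntl6 UMIs.

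**Figure D3:**
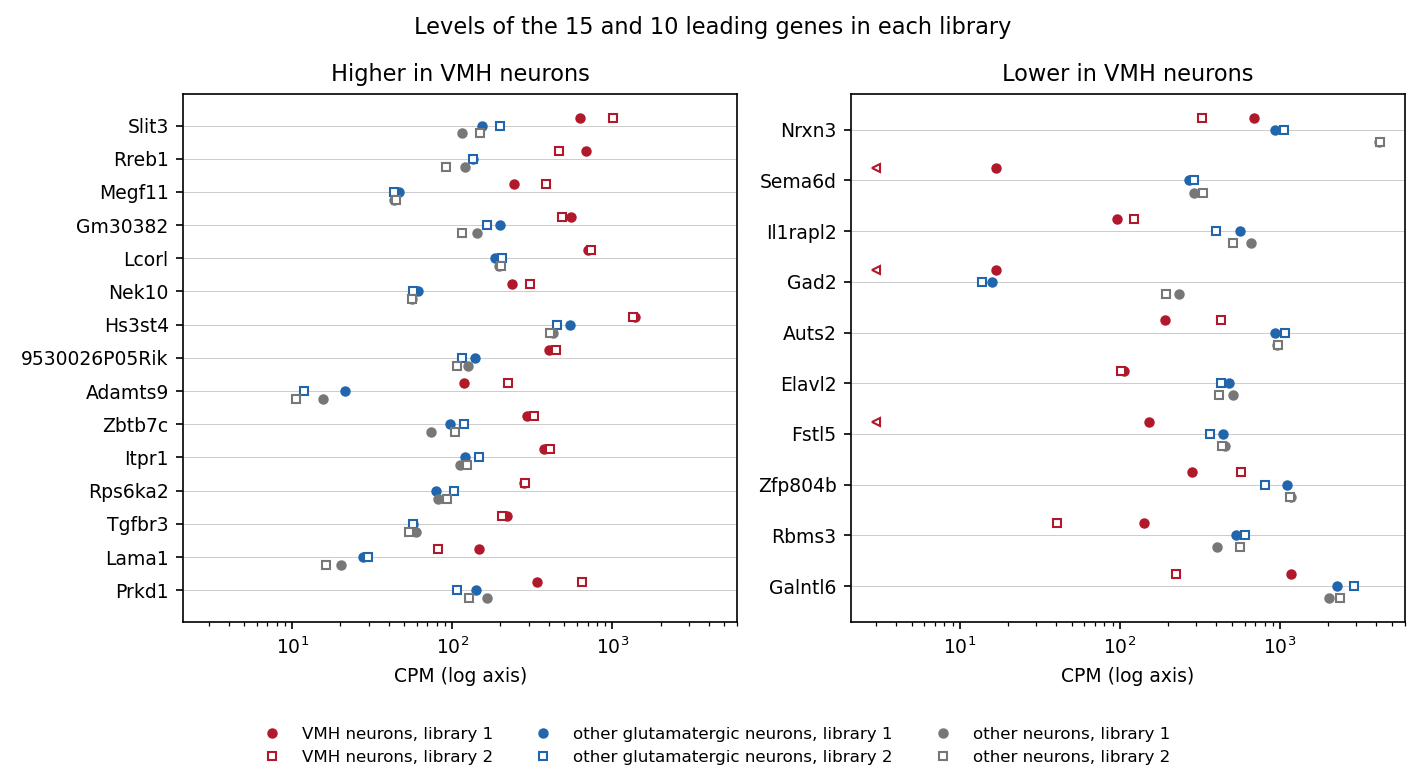
Levels in CPM (log axis) of the 15 leading higher and 10 leading lower genes in VMH neurons (red), other glutamatergic neurons (blue) and other neurons (grey), with library 1 filled and library 2 open. Triangles at the left edge mark 0 UMIs, which holds for Sema6d, Gad2 and Fstl5 in VMH neurons of library 2.

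The direction of the called genes was also read in each library, which is no independent check, since the test used both libraries together. Of the 260 called genes, 213 had UMIs in VMH neurons of both libraries, and 212 of these lay on the same side in both. The exception was Gm32647, chosen for mention after its values were seen, with 39.3 CPM in VMH neurons of library 1 and 589 CPM in those of library 2, against 650.3 and 490.2 CPM in other neurons. The other 47 called genes had no UMI in VMH neurons of at least 1 library. Of these, 46 were called lower, 9 of them with no UMI in either library, and Gm49171 was called higher with 17 UMIs in library 1 and 0 in library 2.

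**Figure D4:**
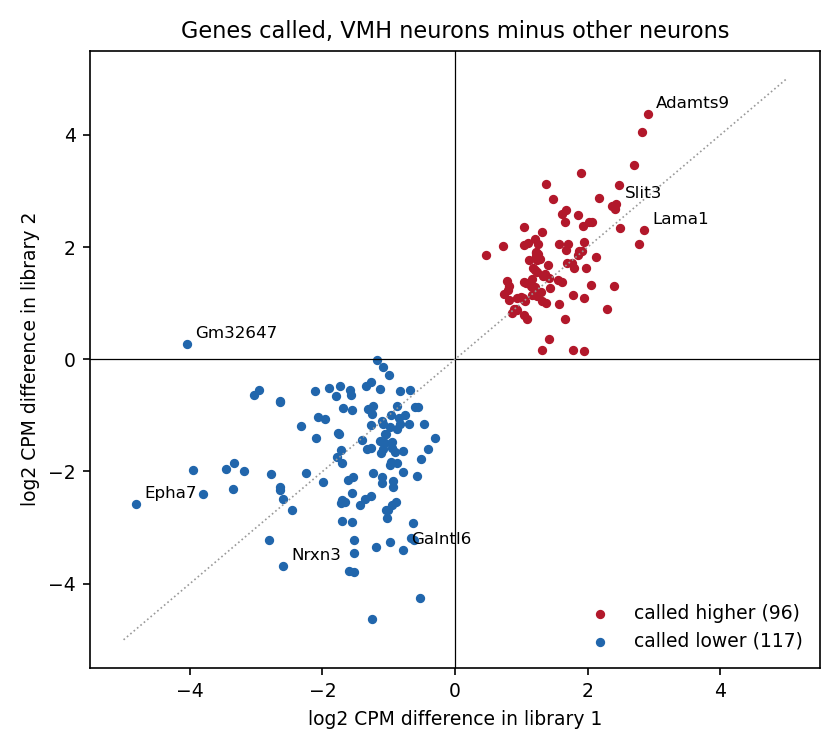
Log2 difference in CPM between VMH neurons and other neurons in library 1 (horizontal axis) and library 2 (vertical axis) for the 213 called genes with UMIs in VMH neurons of both, 96 higher (red) and 117 lower (blue). Gm32647 alone lies on opposite sides of 0.

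In a list of 21 further VMH genes, 6 of the 19 tested were higher and 3 lower, with a median log2 difference of 1.09 against -0.17 over all genes tested, where genes at 0 are set to the level of 3 UMIs. The list was chosen with earlier results of these data known and is no independent evidence of its direction. Ldb2, a cofactor of LIM-domain transcription factors, was at 545 and 813 CPM in VMH neurons against 252 and 239 CPM in other neurons (log2 difference 1.26 ± 0.22 SE, edgeR adjusted p = 4.86e-06). Gda, guanine deaminase, was at 320.2 and 81.3 CPM against 93.0 and 72.4 CPM, and Lmo3, a LIM-only protein, at 230.3 and 81.3 CPM against 72.5 and 49.3 CPM, so their difference was small in library 2, where both had 4 UMIs. Amigo2, an adhesion protein, was at 95.5 and 102 CPM against 26.3 and 17.0 CPM.

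The 3 members that fell were Foxp2, Dlk1 and Nfib. Foxp2, a forkhead transcription factor, had 2 UMIs in VMH neurons of each library (11.2 and 40.6 CPM) against 176 and 161 CPM in other neurons (log2 difference -3.36 ± 0.51 SE, edgeR adjusted p = 2.24e-08). Among the other neurons of cluster 10 it was at 192 and 197 CPM. In the same nuclei Slit3 was at 554 and 798 CPM and Rreb1 at 539 and 436 CPM, and Sema6d at 34.4 and 90.5 CPM. Ldb2 was there at 664 and 531 CPM, Gda at 338 and 276 CPM and Cnr1 at 167 and 136 CPM. Megf11 was at 184 and 255 CPM, Hs3st4 at 982 and 856 CPM and Adamts9 at 55.7 and 53.5 CPM. There, Slit3, Rreb1, Ldb2, Gda, Cnr1, Megf11, Hs3st4 and Adamts9 lay above their level in other neurons as a whole. The high level of these genes was thus not particular to the 51 nuclei. Foxp2, in contrast, was low in the 51 nuclei but not in the rest of cluster 10. Dlk1, a Notch-like ligand, had 5 and 0 UMIs in VMH neurons, and Nfib, a nuclear factor I, 2 and 0. Cnr1, the cannabinoid receptor of neurons, was at 118 and 142 CPM against 54.6 and 53.8 CPM but missed the threshold (adjusted p = 0.0778).

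Of 83 transcription factors that mark hypothalamic neuron types, 47 were tested, and 1 was higher while 11 were lower in VMH neurons (median log2 difference -0.74 with genes at 0 set as above). For this and the list of further VMH genes, the shares over all genes tested were 0.793% higher and 1.33% lower. Sim1, a factor of the paraventricular nucleus, had no UMI in VMH neurons against 57.3 and 64.6 CPM in other neurons, at least 4.54-fold lower against the level of 3 UMIs over both libraries. Zeb2 was at least 3.22-fold and Ebf3 at least 2.67-fold lower by the same measure, all with no UMI. Zfhx4 was at 39.3 and 81.3 CPM against 169 and 217 CPM, and Nr2f2, an orphan nuclear receptor, at 135 and 102 CPM against 60.2 and 39.4 CPM did not pass (adjusted p = 0.0617).

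A list of neuropeptides and some other ligands, namely Bdnf and Cbln and Nxph genes, was low. Of its 40 genes 28 were tested, 7 were lower, none was higher, and 23 of the 40 had no UMI in VMH neurons. Over all genes tested, 0.793% were called higher and 1.33% lower. Cartpt, whose peptides limit feeding, was at least 4.63-fold lower, with no UMI against 70.0 and 45.1 CPM in other neurons. Gal, which encodes galanin, had 1 UMI and other neurons were 18.1 times higher (3.24 to 716). Hcrt, which encodes the orexins, had 2 and 0 UMIs and Pmch, the melanin-concentrating hormone precursor, 3 and 0. Nxph1, a neurexin ligand, was at 320.2 and 122 CPM against 615 and 593 CPM, and Scg2, a secretogranin, at 39.3 and 102 CPM against 136 and 160.2 CPM. The summed level of the list was 573 and 345 CPM in VMH neurons against 1463 and 1395 CPM in other neurons. Nxph1 alone held 57 of the list's 102 UMIs in VMH neurons of library 1 and 6 of 17 in library 2. In other neurons it held 4698 of 11173 and 2512 of 5915, so the sum is in large part no neuropeptide level.

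Markers of neighbouring regions were summed by list. Of 11 arcuate genes 10 had no UMI in VMH neurons and the other, Agrp, had 4 and 3, a summed level of 22.5 and 61.0 CPM against 150.2 and 126 CPM in other neurons. Of 6 paraventricular genes 5 had none, the summed level being 5.62 and 0 CPM against 151 and 191 CPM. Of 6 lateral hypothalamic genes 1 had none, the summed level being 50.6 and 0 CPM against 239 and 205 CPM. Of 7 suprachiasmatic genes 5 had none, and of 5 tuberomammillary and mammillary genes 4. Glial markers were summed in the same way. Oligodendrocyte markers were at 78.6 and 102 CPM in VMH neurons against 144 and 164 CPM in other neurons, astrocyte markers at 78.6 and 40.6 CPM against 124 and 104 CPM and microglia markers at 230.3 and 203 CPM against 139 and 150.02 CPM, with 6, 6 and 5 genes of 10 at 0. No gene of these 3 lists, nor of those of oligodendrocyte precursors, tanycytes and ependyma, and vessels, passed the test in either direction, and their part in the results was not tested.

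Among receptors for peptides, Qrfpr, the receptor of the RFamide peptide QRFP, was at 61.8 and 102 CPM in VMH neurons against 13.6 and 13.7 CPM in other neurons (log2 difference 2.28 ± 0.61 SE, edgeR adjusted p = 0.0114). It was detected in 11 of the 51 nuclei and was 1 of 22 tested that rose. Oprm1, the mu opioid receptor, was the 1 that fell, at 16.9 and 20.3 CPM against 102 and 115 CPM. None of 19 tested receptors for steroid and metabolic hormones was higher and 1, Rorb, was lower, at 67.4 and 142 CPM against 293 and 212 CPM. None of the 20 tested genes of glucose sensing and energy metabolism passed in either direction, which is close to the 0.793% and 1.33% of all tested genes called higher and lower.

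Receptors for fast and slow transmitters differed gene by gene, where 0.793% of all genes tested were called higher and 1.33% lower. Of 23 tested glutamate receptor genes, Grm5, a metabotropic receptor, was higher, at 3202 and 2174 CPM in VMH neurons against 1515 and 1320 CPM in other neurons, and Grik1, Grin3a and Grid1 were lower. Of 18 tested receptors for GABA and glycine, Glra1, a glycine receptor subunit, was higher at 84.3 and 122 CPM against 22.1 and 31.8 CPM, and Gabra5 at 404 and 122 CPM against 151 and 94.8 CPM. Of 21 tested receptors for amines, cannabinoids and acetylcholine, Chrna7, a nicotinic subunit, was higher at 89.9 and 203 CPM against 42.0 and 47.9 CPM. Htr2c, the serotonin receptor 2C, was lower at 129 and 40.6 CPM against 373 and 447 CPM, and 1 nucleus held 11 of its 25 UMIs. Chrm2, Chrm3 and Htr1f were also lower.

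Ion channels gave a few calls in each direction, against 0.793% and 1.33% of all genes tested called higher and lower. Of 51 tested potassium channel genes 4 were higher and 3 lower, with a median log2 difference of 0.04. Kcnq3, a subunit of the M-current, was at 882 and 1361 CPM in VMH neurons against 353 and 488 CPM in other neurons, Kcnb2, a delayed rectifier, at 2202 and 2377 CPM against 955 and 976 CPM, and Kcnn3, a calcium-activated channel, at 101 and 264 CPM against 43.9 and 59.7 CPM. Kcnt2, a sodium-activated channel, was lower at 50.6 and 102 CPM against 196 and 213 CPM. Of 44 tested sodium, calcium and Trp channel genes, Itpr1 and the calcium channel subunit Cacna2d1 were higher and Cacna2d2 and Trpm3 lower. Cacna2d1 was at 2033 and 1971 CPM against 911 and 735 CPM.

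Guidance and adhesion genes held more calls lower than higher, as did all genes tested, with 0.793% called higher and 1.33% lower. Of 41 tested axon guidance genes 2, the ligands Slit3 and Slit2, were higher and 10 were lower, among them Robo1, a receptor of Slit ligands. Slit2 was at 758 and 955 CPM in VMH neurons against 441 and 365 CPM in other neurons, and Robo1 at 573 and 427 CPM against 1187 and 1208 CPM. Epha7, an ephrin receptor, had 1 UMI in each library and other neurons were 16.9 times higher (4.66 to 139), and Epha6 was at 253 and 386 CPM against 817 and 703 CPM. Of 53 tested synaptic adhesion genes 3 were higher, Tenm2, Opcml and Adgrl2, and 10 lower. Sdk2 had no UMI and was at least 3.68-fold lower, and Cntnap5a was at 595 and 386 CPM against 1058 and 855 CPM.

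Cadherins went both ways, with 0.793% of all genes tested called higher and 1.33% lower. Cdh13 was at 803 and 955 CPM in VMH neurons against 340.2 and 434 CPM in other neurons, and Cdh4 at 315 and 650.2 CPM against 142 and 263 CPM, and these were the 2 of 28 tested that were higher. Cdh10, Cdh12, Cdh18 and Pcdh7 were the 4 that were lower. Of 44 tested vesicle release genes, Cadps2, a priming factor of dense core vesicles, was higher at 736 and 609.6 CPM against 358 and 351 CPM, Syt6, a synaptotagmin, was higher at 73.0 and 81.3 CPM against 16.6 and 22.9 CPM, and Unc13c was lower at 28.1 and 142 CPM against 231 and 222 CPM. Of 27 tested matrix genes Lama1 was higher, and Thsd7a, Col11a1 and Col25a1 were lower.

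**Figure D5:**
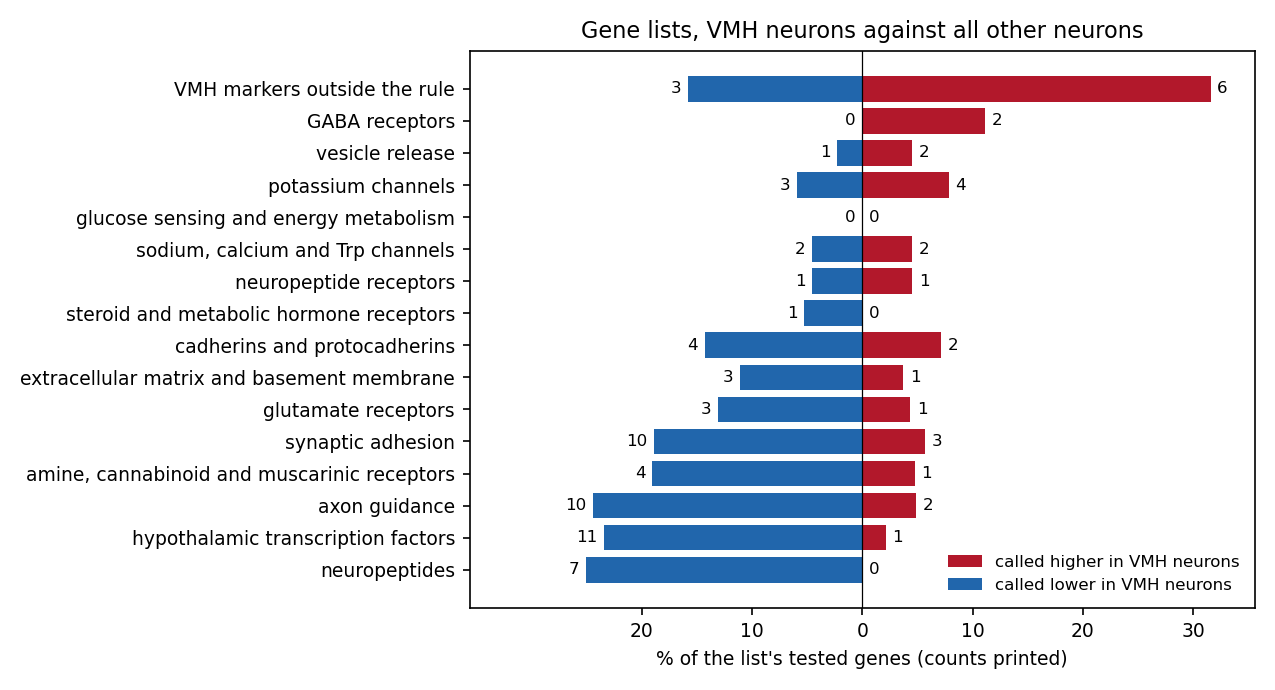
Share of each list's tested genes that were called higher (red, right) or lower (blue, left) in VMH neurons than in other neurons, in %, for the lists with 18 or more tested genes and with the counts printed at the bars. The list of further VMH genes has the most higher calls, 6 of 19, and the list of neuropeptides and some other ligands has none higher and 7 lower of 28.

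The second comparison took as its reference the 351 and 130 other glutamatergic neurons, those with at least 2 Slc17a6 UMIs and more of them than of Slc32a1, Gad1 and Gad2 together. Their median was 3129 and 3715 UMIs, against 3978 and 3708.5 in VMH neurons, so depth differed less here. Of 5701 genes tested, 96 (1.68%) were higher and 120 (2.1%) lower in VMH neurons, and 722 had an unadjusted p under 0.05. DESeq2 called 28, 12 higher and 16 lower, all of them among the 216. The VMH sums are the same in both comparisons and the glutamatergic neurons are part of the other neurons, so the 2 sets of calls are not independent.

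Slit3, Rreb1, Lcorl, Megf11 and Hs3st4 also led against glutamatergic neurons. Slit3 was at 623 and 1016 CPM in VMH neurons against 154 and 199 CPM in other glutamatergic neurons (log2 difference 2.14 ± 0.20 SE, edgeR adjusted p = 3.19e-06), and Rreb1 at 680 and 467 CPM against 134 and 134 CPM. Rbfox1, a neuronal splicing factor, was at 5280 and 8250 CPM against 2758 and 4030 CPM, and Rasgrf2, a Ras exchange factor, at 696 and 935 CPM against 268 and 367 CPM. Kcnb2, Kcnq3, Cdh13, Itpr1, Prkd1, Nek10, Gm30382 and 9530026P05Rik made up the rest of the 15. Gm30382, Cdh13 and Itpr1 missed the threshold of DESeq2, with adjusted p of 0.0529, 0.0532 and 0.0780, and of the 60 called genes named in this comparison 23 passed it.

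Guidance, adhesion and transcription factor genes were among the 10 leading lower genes. Sema6d was at 16.9 and 0 CPM in VMH neurons against 269 and 290 CPM in other glutamatergic neurons (edgeR adjusted p = 2.62e-05), and Foxp2 at 11.2 and 40.6 CPM against 246 and 231 CPM. Epha7 was 23.4 times higher in other glutamatergic neurons (6.43 to 194). Cadm2, a synaptic adhesion protein, was at 1129 and 1240 CPM in VMH neurons against 2960 and 2736 CPM, Pde4d, a cyclic AMP phosphodiesterase, at 618 and 935 CPM against 2138 and 1868 CPM, and Mgat4c, a glycosyltransferase, at 843 and 366 CPM against 2067 and 1521 CPM. Auts2, Il1rapl2, Egfem1 and Elavl2 completed the 10. Sim1, called as well but not among the 10, had no UMI in VMH neurons against 98.7 and 86.8 CPM in other glutamatergic neurons, at least 7.22-fold lower.

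List by list, 5 of 11 tested VMH genes were higher, among them Slit3, Ldb2, Amigo2 and Gda, and 2 were lower, Foxp2 and Nfib, with a median of 1.12 against -0.02 over all genes tested. Gda differed in library 1 only, with log2 differences of 1.88 and 0.007 and 57 and 4 UMIs in VMH neurons of libraries 1 and 2. Of 24 tested transcription factors 2 were higher, Nr2f2 among them, and 8 lower. Of 33 tested potassium channel genes 5 were higher and 1 lower. Kcnab1, an auxiliary subunit, was at 253 and 345 CPM in VMH neurons against 122 and 124 CPM in other glutamatergic neurons, Kcnh7 at 1488 and 1280 CPM against 969 and 836 CPM, and Kcnq5, the 1 lower, at 427 and 488 CPM against 919 and 864 CPM. Of 35 tested sodium, calcium and Trp channel genes, Itpr1, Cacna1e, which carries the R-type calcium current, and Cacna2d3 were higher and Trpm3 was lower. Qrfpr, Glra1, Grm5, Cadps2, Syt6 and Lama1 were higher here as well, with log2 differences between 0.80 and 2.42. None of 13 tested genes of glucose sensing and none of 15 tested hormone receptors passed, against 1.68% and 2.1% of all tested genes called higher and lower.

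The promoter windows of the called genes were searched for the Nr5a1 half-site. CAAGGTCA, on either strand, stood in 2 of 95 promoters (2.11%) of the genes called higher than in other neurons, both of Syt6 and overlapping each other, against 1.05% of the promoters of all genes tested, 1.56% of all 32851 promoters and 0.565% of the 177 promoters of genes called lower. A promoter was found for 69 of the 97 higher genes. Counted by gene, CAAGGTCA stood in 1 of these 69, in 121 of 9313 tested genes with a promoter and in 1 of 125 such lower genes. The shorter core AGGTCA, which the longer motif contains, stood in 9.47% of promoters of higher genes, 7.91% of those of lower genes, 12.1% of those of all genes tested and 16.3% of all. A match describes letters in this window, not binding.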

How the data were processed

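Nuclear RNA of whole mouse hypothalamus was profiled with the Chromium Next GEM 3′ chemistry, version 3.1, after isolation with a nucleus kit, per the labels' protocols. The deposited values are raw UMI counts per gene and barcode, made with Cell Ranger 5.0.1 per the submitters' processing notes. Those notes name the human build GRCh38, although all gene identifiers are mouse ones, and no source used here gives a mouse build.

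The 2 control-labelled matrices were used, each as 1 library, since the transplanted-labelled ones hold the same nuclei. Replicates were numbered in accession order. Sums over nuclei were tested with edgeR 4.0.16 (TMM, filterByExpr, quasi-likelihood, library as block, since both sums of a pair come from 1 library) in R 4.3.3, and DESeq2 1.42.0 was the alternative. Snhg11 and the 4 genes of the rule were left out of the tests, and Slc17a6, Slc32a1, Gad1 and Gad2 also from those against glutamatergic neurons. Neurons were clustered with leiden in scanpy 1.11.5 (3000 variable genes, 40 components, 20 neighbours, resolution 1). No doublets were removed. The test was also run on counts simulated with the same spread for every gene, which the real sums need not have. That run therefore does not measure the error of the calls given here.

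The members, lists and tests were chosen with earlier results of these data known. Named genes were the 15 higher and 10 lower called genes with the smallest p that lay on the same side in both libraries, called list genes (the 4 smallest p where over 6 were called) and a set of VMH genes always given. Gene names in lists outside this rule are given after their values were seen.
A few genes are not reported here.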

Additional observations from a re-analysis of the deposited data

How the results depend on the processing

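The 2 comparisons were repeated under 14 settings each, 2 of them, on cluster 10, chosen after seeing the data. Against all other neurons, 260 calls became 24 with DESeq2, 122 without the library block, 11 with every nucleus thinned to 1000 UMIs, 119 with a sum of the 4 genes of at least 5, 420 with at least 2 and 53 with Nr5a1 itself required. Against other glutamatergic neurons, 216 calls became 28, 97, 53, 125, 442 and 84 in the same order, 138 with library totals alone and 392 with cluster 10 left out of the reference. Fewer nuclei or UMIs enter the thinned, stricter and Nr5a1 settings; the cause of the other changes was not tested. Leaving out the reference nuclei of cluster 10 gave 265 calls against all other neurons, 239 of the 260 among them. Counted over the calls that a setting still tested, the sign was opposite for 3 of 259 when thinned and 2 of 260 with Nr5a1 required against all other neurons, and for 1 of 151 and 2 of 205 against other glutamatergic neurons, and for none in the other 12 settings of each. For called named genes, 1489 of 1875 repeated values stayed past the threshold in the same direction, 386 missed it and none reversed. Only settings that tested the gene and gave it an adjusted p were counted. The transplanted-labelled deposit, which holds the same nuclei, was among the settings and is no separate check. The share of VMH neurons, 1.20% over both libraries, was 0.424% with a sum of at least 5, 1.86% with at least 2, 0.330% with Nr5a1 required and 1.68% among neurons with at least 2000 UMIs, and 0.843% to 1.38% with 1 library left out. The share in the leading cluster, 84.3%, was 96.1% at resolution 0.5, 76.5% at resolution 2, 86.3% with 20 components and 79.5% to 100% with 1 library left out. With 1 library left out no gene test has residual degrees of freedom. The comparison of VMH neurons with and without Esr1 was not run, since 1 of 39 and 3 of 12 nuclei had an Esr1 UMI. Depth limits all levels under about 3 UMIs per set.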
